A study of Homo sapiens with 72 samples.

Results

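The comparison described here set directly irradiated IMR-90 cells against their bystander cells 6 h after exposure to α-particles, with no control arrays in the contrast. IMR-90 is a line of normal human lung fibroblasts. The members of the comparison were chosen by label and were the 4 irradiated and 4 bystander arrays of 6 h, 8 of the 72 arrays of the series, which covers control, irradiated and bystander cells at 6 times after exposure. The irradiated cells received 0.5 Gy. The bystander cells grew on an inner dish of thicker Mylar strips that stopped the α-particles. This dish was set into the larger thin-based dish of the irradiated cells, and both populations lay within 1 contiguous layer. The control cells, used here only for reference, were sham-irradiated. By the study's methods, each replicate number is 1 of 4 independent experiments. In each of them 1 frozen vial, grown into a pool, supplied the cells of every condition. The spread between replicates is that between experiments with 1 cell line. The whole irradiated population was profiled, and how many of its cells were traversed was not measured on these arrays.

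α-Particles deposit their energy in dense tracks and leave DNA double-strand breaks in the cells they cross. Damaged DNA activates the kinases ATM and ATR, which stabilise the transcription factor p53. p53 then raises genes that stop the cell cycle, repair DNA or prepare cell death, among them MDM2, whose protein returns p53 to a low level. Bystander cells are not crossed by a track and are known to respond to signals from crossed neighbours, through cell contacts and secreted factors such as interleukins, with NF-κB as a main regulator. A direct comparison of the populations at 1 time asks which transcripts differ between cells exposed to the tracks and their shielded neighbours. The base of the dish differed as well, and its part cannot be told apart from that of exposure.

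The arrays were 1-colour Agilent whole-genome arrays, 1 RNA sample each. On the irradiated arrays 66.98% to 70.96% of spots were well above background, and on the bystander arrays 66.35% to 73.33%, and no spot of these 8 arrays was saturated. The number of arrays, not a depth of counting, limits the precision. Levels are given as log2 intensity scaled to a common 75th percentile, and differences as irradiated minus bystander on the log2 scale, mean ± SD over the 4 experiments. Of 41000 probes, 25246 passed the study's filter on dim and uneven spots. All 10 fibroblast markers fixed for this work, among them COL1A2, DCN and VIM, were well above background on all 8 arrays. Of 17 markers of epithelial, endothelial and blood cells, 11 were well above background on all 8 arrays, among them KRT8, KRT18, TEK and CD68, and 4 (CDH1, PECAM1, CDH5 and PTPRC) on none.

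The p53 target gene lists had the highest medians of all lists, positive in every experiment after scaling between arrays. All lists were chosen with earlier results of these data known, and this order was not tested. Single genes of the p53 lists ranged from -0.26 to 1.41. FDXR was 2.55-fold, DDB2 2.39-fold and TNFRSF10C 2.65-fold higher on the mean log2 scale. Of the 42 measured genes of 3 p53 lists, 31 were higher in irradiated cells in 4 of 4 experiments and 2 were lower in 4 of 4. Over all 25188 probes measured on these arrays, 9.33% were higher and 7.48% lower in 4 of 4. Without scaling between arrays 20 of the 42 were higher in 4 of 4. The median of all probes was -0.14 without scaling. The shares of all probes in 4 of 4 without scaling are not given here, for this or any later list. The p53 apoptosis and death receptor list then had a median of 0.20, and -0.07 in experiment 3. The arrest and repair lists were at 0.09 and 0.03 in that experiment. The p53 genes' median difference was 0.62, against 0.02 for all probes. The 15 measured cytokine and chemokine genes had a median difference of 0.02.

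No single probe passed the significance threshold when the contrast was fitted by limma on all 12 arrays of 6 h, with the control arrays sharing in the estimate of spread. At an adjusted p below 0.10, 0 of 25246 probes were called in either direction (0%), 383 had an unadjusted p under 0.05, and the lowest adjusted p was 0.637. When the 8 irradiated and bystander arrays were fitted alone, 5 probes were called higher in irradiated cells (0.0198% of probes) and 0 lower, with 1721 at an unadjusted p under 0.05. These 5 were probes of FDXR, DDB2, VWCE, BBC3 and TNFRSF10C. The 5 calls were not kept when any of experiments 2, 3 or 4 was left out (0 called higher each time), and without experiment 1 the same fit called 58 higher and 63 lower. Without scaling between arrays that fit called 25 higher and 115 lower, and with no filter on dim probes 0 in either direction. With 4 pairs, an exact two-sided sign-flip test of any 1 gene cannot go below p = 0.125.

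Experiment 1 stood apart in how its arrays moved together. The deviations of irradiated and bystander arrays from their group means correlated across probes at 0.55, 0.88 and 0.82 in experiments 2, 3 and 4. In experiment 1 they correlated at 0.05, and its irradiated array correlated at 0.68 with the bystander array of experiment 2. That bystander array was also the closest to the irradiated array of experiment 2, at 0.55. The irradiated arrays of experiments 1 and 2 also read close for some genes, as for IL6 (12.645 and 12.609) and TAGLN (14.931 and 14.956). For CDH7 they did not (7.21 and 5.10). Whether these 2 arrays are independent, as the methods state for the experiments, was not tested. The numbers of the labels were kept. Whether the arrays of experiments 1 and 2 at 6 h are paired as numbered was not tested further, and every paired difference, SD and count over 4 of 4 experiments given here rests on that pairing. Probes are not independent replicates, and these values describe the arrays only. At the other 5 times, the 4 pairs of each time correlated between 0.42 and 0.90, and at 24 h the irradiated array of experiment 2 was likewise closer to the bystander array of experiment 1 (0.46) than to its own (0.42). The irradiated and bystander arrays shared a slide, and with it a scan, in experiments 1, 2 and 4, whereas those of experiment 3 were on different slides. The raw 75th percentile of the irradiated array was below that of its bystander array by 0.25, 0.03 and 0.50 on the log2 scale in experiments 1, 2 and 3 and above it by 0.13 in experiment 4.

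Since so few probes were called, size and agreement between experiments were described as well, by a rule with no test that was set after the values were seen. In 4 of 4 experiments, 27 probes were at least 1.5-fold higher in irradiated cells (0.107% of 25188 probes measured on all arrays) and 10 were at least 1.5-fold lower (0.0397%). The 23 named probes among the 27 represented 22 genes, of which 11 were in the p53 lists. None of the 5 named genes among the 10 lower probes was. Of the 42 p53 list genes, each read by its brightest probe, 10 met the rule for higher.

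**Figure D1:**
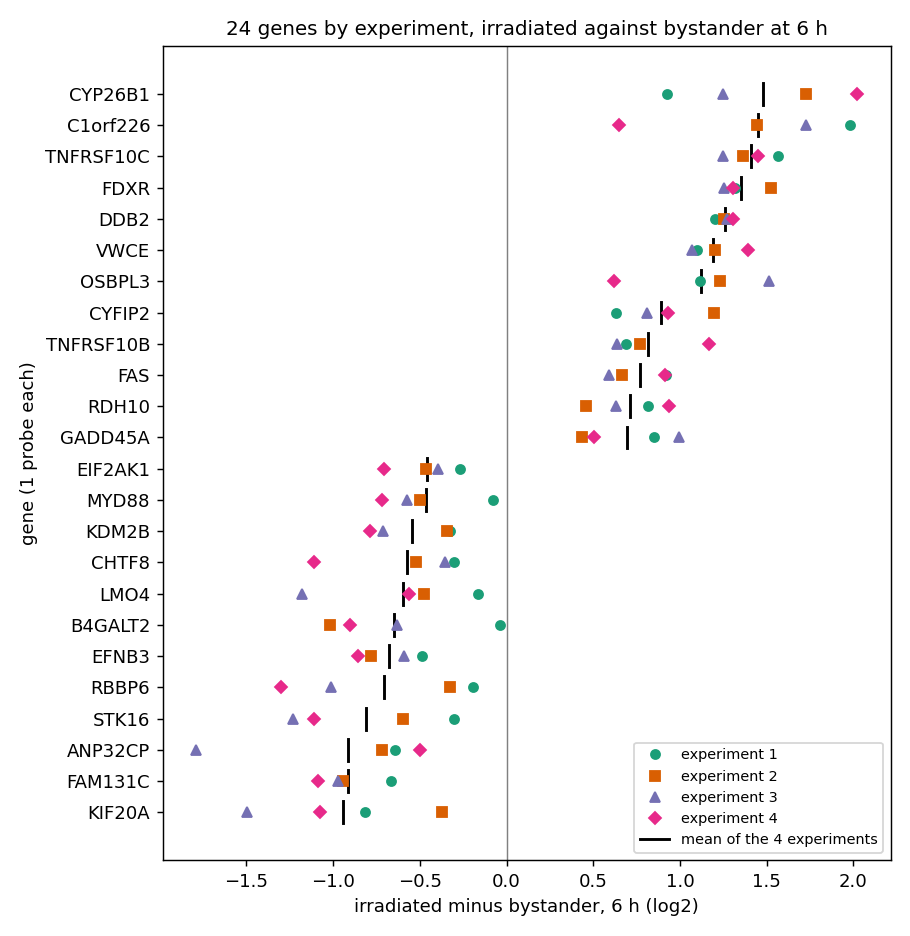
Difference between irradiated and bystander cells at 6 h (log2, x axis) for the 12 genes of lowest p higher and the 12 lower in irradiated cells in 4 of 4 experiments (y axis), with 1 marker for each experiment and a bar at the mean. The 4 markers of DDB2 lie between 1.20 and 1.30, while those of KIF20A spread from -1.50 to -0.37.

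FDXR, ferredoxin reductase, passes electrons to mitochondrial cytochromes and is a known p53 target. Its probe A_23_P38154 read 13.30, 13.36, 13.61 and 12.51 on the irradiated arrays of experiments 1 to 4 and 11.98, 11.84, 12.36 and 11.20 on the bystander arrays. All irradiated arrays were above all bystander arrays, and the paired differences of 1.31, 1.53, 1.25 and 1.31 varied less than the levels did. The mean difference was 1.35 ± 0.12, with an adjusted p of 0.695 by limma on 12 arrays and 0.0280 on 8 arrays. The controls read 11.03, 11.58, 12.17 and 11.77, so the control arrays overlapped the bystander arrays and not the irradiated ones.

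DDB2 encodes the damage-binding protein that starts nucleotide excision repair of ultraviolet lesions in chromatin. It read 13.22, 13.26, 13.35 and 12.23 on the irradiated arrays and 12.02, 12.004, 12.08 and 10.93 on the bystander arrays. The groups did not overlap, and experiment 4 was the lowest in each. The differences were 1.20, 1.25, 1.27 and 1.30, a mean of 1.26 ± 0.04 (adjusted p 0.874 by limma on 12 arrays, 0.0280 on 8). This SD was 0.04 although the levels of each group spanned over 1 log2 unit.

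The death receptor genes on the p53 lists behaved alike in direction. TNFRSF10C, a decoy receptor for the death ligand TRAIL, read 8.08, 8.06, 8.95 and 7.28 on the irradiated arrays and 6.51, 6.69, 7.70 and 5.83 on the bystander arrays. The groups overlapped because experiment 3 was high and experiment 4 low in each, but the paired differences ran from 1.25 to 1.56, with a mean of 1.41 ± 0.13 (adjusted p 0.720 by limma on 12 arrays, 0.0542 on 8). TNFRSF10B, the signalling TRAIL receptor DR5, was higher by 0.81 ± 0.24 and FAS, the receptor of FAS ligand, by 0.77 ± 0.17. For FAS the irradiated arrays read 10.47, 10.37, 10.10 and 10.42 and the bystander arrays 9.55, 9.71, 9.50 and 9.51, with no overlap. A further probe of TNFRSF10B gave 0.65 ± 0.13. TNFRSF10A, a TRAIL receptor named after its values were seen, was higher by 1.14 ± 0.21, although its probe was not well above background on 1 of the 12 arrays.

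BBC3 encodes PUMA, a BH3-only protein that opens the mitochondrial path to apoptosis, and its probes disagreed. Its brightest probe, A_23_P90189, gave -0.00 ± 0.21, while A_23_P382775, singled out after its values were seen, gave 1.23 ± 0.16, with differences of 1.22, 1.12, 1.11 and 1.46 (adjusted p 0.0527 by limma on 8 arrays). The remaining probe, A_24_P305312, gave 0.64 ± 0.64. No transcript was assigned to these probes, so a change for the gene as a whole cannot be stated. PIDD1, an adaptor of a caspase-activating complex, was higher by 0.80 ± 0.16. PMAIP1, which encodes the BH3-only protein NOXA, was higher by 0.33 ± 0.10 and AEN, an apoptosis-enhancing nuclease, by 0.41 ± 0.09, each in 4 of 4 experiments. PIDD1, PMAIP1, AEN, BAX and TP53I3 were named after their values were seen. BAX was at -0.16 ± 0.75 and TP53I3 at -0.10 ± 0.34, within the spread between experiments. Of the 14 genes of the apoptosis and death receptor list, 7 were higher in 4 of 4 experiments and APAF1 and TP53AIP1 lower in 4 of 4, and the median was 0.37. Without scaling between arrays 5 were higher and 1 lower in 4 of 4, and the median was 0.20.

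All 13 genes of the p53 arrest and feedback list were higher in irradiated cells in 4 of 4 experiments. Without scaling between arrays 7 of the 13 were. The median difference was 0.70, with a range from 0.32 to 1.32. Against the control arrays the list's medians were 0.52 in irradiated and -0.16 in bystander cells. Of its genes 5 and 1 were called higher there, against 4.88% and 0.214% of all probes. CDKN1A encodes p21, the inhibitor of cyclin-dependent kinases that holds cells in G1. It read 15.00, 14.76, 15.11 and 14.70 on the irradiated arrays and 13.91, 13.56, 14.35 and 13.05 on the bystander arrays. The lowest irradiated array was above the highest bystander array, and the difference was 1.17 ± 0.37 (adjusted p 0.173 by limma on 8 arrays). A dimmer probe of CDKN1A gave 1.42 ± 1.12, with -0.00 in experiment 1 and 2.61 in experiment 4.

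GADD45A, a stress sensor that acts on cyclin B1–CDK1, read 13.29, 13.14, 13.06 and 12.97 on the irradiated arrays and 12.45, 12.71, 12.07 and 12.47 on the bystander arrays. The groups did not overlap, and the control arrays, between 11.31 and 11.40, lay below each of them. The difference was 0.70 ± 0.27. MDM2, the ubiquitin ligase of p53, was higher by 0.75 ± 0.24, without overlap, and by an uneven 0.52 ± 0.58 on its other probe. GDF15, a secreted member of the TGF-β family, had a larger but uneven difference of 1.32 ± 0.86, with 0.84, 0.42, 1.70 and 2.34 in experiments 1 to 4. Its bystander arrays read 15.78 and 15.72 in experiments 1 and 2 but 13.93 and 13.16 in experiments 3 and 4, while the irradiated arrays stayed between 15.50 and 16.62.

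SESN1, a sestrin that restrains mTOR signalling, gave 0.61, 0.62, 0.59 and 0.65 (0.62 ± 0.03), and PPM1D, the phosphatase WIP1 that switches off ATM and p53 signalling, gave 0.38 ± 0.06. BTG2, an antiproliferative gene, was higher by 0.98 ± 0.32 and the kinase gene PLK3 by 0.75 ± 0.18. These 4 genes were named after their values were seen. None of them was called by either fit.

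**Figure D2:**
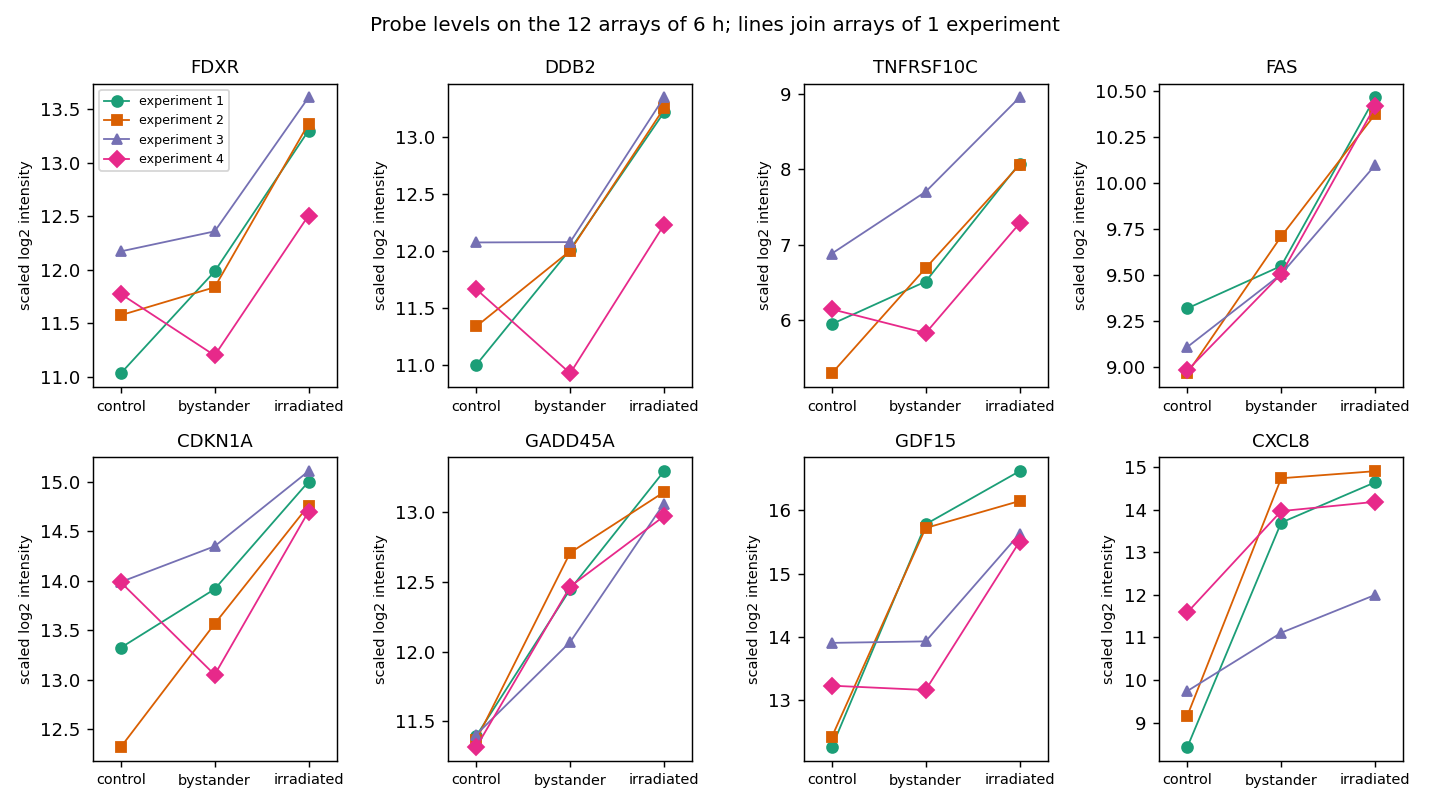
Scaled log2 intensity (y axis of each panel, own scale) on the 12 arrays of 6 h for 8 genes, by group (x axis), with lines joining arrays of 1 experiment. For FDXR, DDB2, FAS, CDKN1A and GADD45A the irradiated arrays lie above all bystander arrays, whereas for CXCL8 the lines differ by 0.95, 0.17, 0.89 and 0.22 from bystander to irradiated in experiments 1 to 4 and the groups overlap.

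The repair and other targets gave a median of 0.63 over 15 measured genes, 11 of them higher in 4 of 4 experiments and none lower in 4 of 4. Without scaling between arrays 8 were higher and 1 lower in 4 of 4, with a median of 0.47. POLH, the polymerase η that copies past ultraviolet lesions, was higher by 0.85 ± 0.39, with 1.42 in experiment 1 and 0.57 to 0.70 in the others. XPC, which recognises helix distortions, was higher by 0.42 ± 0.25. CYFIP2, which interacts with the protein FMRP, was higher by 0.89 ± 0.24. The regulator of glycolysis TIGAR (0.62 ± 0.23), the mitochondrial quality factor SPATA18 (1.09 ± 0.30), the ubiquitin ligase subunit FBXO22 (0.63 ± 0.19) and the ribosomal protein-like RPS27L (0.57 ± 0.07), named after their values were seen, were also higher in 4 of 4 experiments on their brightest probes. Other probes were uneven for TIGAR (0.30 ± 0.49, below 0 in experiments 3 and 4) and FBXO22 (0.84 ± 0.72, below 0 in experiment 1). EDA2R of this list did not pass the filter on dim probes.

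The p53 response element is a pair of decamers, and it was searched in RefSeq promoter windows of GRCh38.p14, from 250 bases before to 50 after each gene's start. A match kept the 4 core C and G letters, had at most 3 other mismatches and at most 1 base between the decamers. The element is a palindrome, so a search of 1 strand covers both. A promoter was at hand for 33 of the 42 p53 list genes and 6 of them held a match (18.2%). In all, 649 of 27305 promoters did (2.38%), and 222 of 10403 promoters of genes with a probe past the filter (2.13%). The lists were drawn up as p53 targets, so their share is not a result of these arrays. Of the 8 promoters at hand for the 12 named higher genes, 1 held a match, that of FDXR, and of 9 for the 12 named lower genes, 0. The matches of 4 genes of the lists that were higher in 4 of 4 experiments, and lay before the start, are shown with flanks, because they set a match beside a measured difference, 5′ to 3′ along the gene's strand, with the matched element in capitals.
AEN: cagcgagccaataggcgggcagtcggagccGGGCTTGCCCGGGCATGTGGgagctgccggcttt
FDXR: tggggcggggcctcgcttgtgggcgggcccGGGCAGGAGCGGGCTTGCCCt
PMAIP1: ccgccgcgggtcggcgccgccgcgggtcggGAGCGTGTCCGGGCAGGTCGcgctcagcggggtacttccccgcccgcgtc
RPS27L: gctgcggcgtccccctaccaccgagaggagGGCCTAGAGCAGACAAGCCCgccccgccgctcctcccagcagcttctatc
The AEN stretch is chr15:88621276-88621339 on the plus strand, with 2 mismatches, that of FDXR chr17:74872995-74873045 on the minus strand, with 3, that of PMAIP1 chr18:59899781-59899860 on the plus strand, with 3, and that of RPS27L chr15:63157497-63157576 on the minus strand, with 3. The elements of AEN and FDXR ended 15 and 2 bases before the start. GDF15 held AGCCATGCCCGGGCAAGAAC, 29 to 48 bases after its start (chr19:18386186-18386205, plus strand), with 3 mismatches. The sixth match was in TP53AIP1, whose difference was -0.26 ± 0.18. A match is a description of letters and not of binding, and DDB2, CDKN1A and BBC3 had no match in this window.

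Other genes with the lowest p values for higher expression in irradiated cells were outside the p53 lists. VWCE, a gene for a secreted protein with von Willebrand factor C domains, read 11.11, 11.25, 11.69 and 11.08 on the irradiated arrays and 10.01, 10.05, 10.62 and 9.69 on the bystander arrays. The groups did not overlap, and the difference was 1.19 ± 0.15 (adjusted p 0.637 by limma on 12 arrays, 0.0527 on 8). CYP26B1, which degrades retinoic acid, was higher by 1.48 ± 0.49, and RDH10, a retinol dehydrogenase gene, by 0.71 ± 0.21, with a further probe at 0.40 ± 0.30. OSBPL3, an oxysterol-binding protein gene, was higher by 1.12 ± 0.37 on its brightest probe and 0.85 ± 0.53 on a further probe. C1orf226 was higher by 1.45 ± 0.58, and the cadherin gene CDH7 and TMEM217, named after their values were seen, by 1.30 ± 0.45 and 1.02 ± 0.11. CDH7 was not well above background on 1 of the 12 arrays. Of these genes VWCE alone was called, by the fit of 8 arrays.

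GDNF, a neurotrophic factor gene always named here, differed between its 2 probes. The brighter, A_24_P376451, gave -0.19 ± 0.45, within its spread, and A_32_P377880 gave 1.02 ± 0.32, with 1.12, 0.55, 1.14 and 1.27. On the latter the irradiated arrays (9.01, 8.88, 9.40 and 8.72) did not overlap the bystander arrays (7.89, 8.33, 8.25 and 7.45). A direction for the gene depends on the probe.

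ATF3, a stress-induced transcription factor, was higher by 0.74 ± 0.11 on its brightest probe, the single one of the immediate early list at least 1.5-fold higher in 4 of 4 experiments, but at -0.08 ± 0.27 on its other probe, so that a direction for the gene depends on the probe. That list of 16 had a median of 0.17, and of 0.005 without scaling between arrays. HERPUD1, which serves degradation at the endoplasmic reticulum, gave 0.48, 0.42, 0.49 and 0.42 (0.45 ± 0.04). The unfolded protein and amino acid response list, to which it belongs, had a median of 0.27 over 10 genes, and of 0.10 without scaling. ATF3 and HERPUD1 were named after their values were seen.

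Probes at least 1.5-fold lower in irradiated cells in every experiment were 10 against 27 higher, but this order turned to 18 against 9 without scaling, 95 against 77 with no filter on dim probes and 51 against 50 without experiment 1. KIF20A, a kinesin of cytokinesis, read 10.22, 10.23, 8.88 and 9.16 on the irradiated arrays and 11.04, 10.61, 10.38 and 10.24 on the bystander arrays. The groups only just separated, with 10.23 as the highest irradiated and 10.24 as the lowest bystander value, and the difference was -0.94 ± 0.47 (adjusted p 0.446 by limma on 8 arrays). It was the lowest difference of the 23 genes of the G2/M and mitosis list, and 5 of them were lower in 4 of 4 experiments (7.48% of all probes were), 10 without scaling between arrays, and none higher in 4 of 4. CCNB1, cyclin B1, was at -0.57 ± 0.32 and CDC20, an activator of the anaphase-promoting complex, at -0.69 ± 0.54, each lower in 4 of 4. The mitotic kinase gene PLK1 was at 0.19, -0.09, -1.05 and -0.98 in experiments 1 to 4. The list's median was -0.46, but by experiment it was 0.00, 0.01, -0.89 and -0.66, and the values away from 0 were those of experiments 3 and 4. Against the control arrays its medians were 0.33 in irradiated and 0.80 in bystander cells, with 1 and 0 genes called higher. Of the 20 genes for G1/S and replication, 2 were higher and 2 lower in 4 of 4 experiments, close to the shares of all probes. Their median was -0.08, and -0.25 without scaling, where none was higher and 9 lower in 4 of 4. The median of all probes was -0.14 without scaling, and these counts of 9 and 10 lower are not set against a share of all probes. PCNA, the replication clamp and a known p53 target, named after its value was seen, was at 0.57 ± 0.67.

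The other 11 lower genes of the rule were EFNB3 (an ephrin, -0.68 ± 0.17), FAM131C (-0.92 ± 0.18), ANP32CP (-0.91 ± 0.59), STK16 (a kinase, -0.81 ± 0.44), RBBP6 (-0.71 ± 0.53), B4GALT2 (a galactosyltransferase, -0.65 ± 0.44), LMO4 (-0.60 ± 0.43), CHTF8 (-0.57 ± 0.37), KDM2B (a histone demethylase, -0.54 ± 0.24), MYD88 (the adaptor of Toll-like receptors, -0.47 ± 0.27) and EIF2AK1 (a kinase that slows translation, -0.46 ± 0.18). None was called by either fit. Second probes were lower in 4 of 4 experiments as well for KDM2B (-0.57), MYD88 (-0.49), STK16 (-0.57) and EIF2AK1 (-0.30). Other probes lay near 0 or above it, at -0.02 ± 0.70 for EFNB3, 0.33 ± 0.31 and -0.00 ± 0.12 for RBBP6, and 0.12 ± 0.23 for B4GALT2, whose remaining probe was at -0.31 ± 0.18, so that the direction of these 3 genes depends on the probe. ANP32CP is a pseudogene with close relatives, and its probe may read them. The 5 named genes at least 1.5-fold lower in 4 of 4 experiments were FAM131C, ARHGAP35, CCL24, MYH14 and DOCK3. ARHGAP35, a GTPase-activating protein gene, gave -0.76 ± 0.13 on this probe and -0.42 ± 0.23 and -0.20 ± 0.58 on its others, and this probe was not well above background on 1 of the 12 arrays. The chemokine gene CCL24 (-0.97 ± 0.21), MYH14 (-1.10 ± 0.49) and DOCK3 (-1.15 ± 0.55), like ARHGAP35 named after their values were seen, varied widely over the control arrays, as did FAM131C, which read 14.85, 12.98, 15.28 and 15.54 there. A second probe of MYH14 was at 0.04 ± 0.51. DOCK3 had no even spot on the array of control 1. MYH14 read 13.94, 11.31, 13.91 and 14.52 on the control arrays, and the raw 75th percentiles of the same arrays were 10.43, 9.50, 10.05 and 10.44. The part of array brightness in these differences was not tested.

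**Figure D3:**
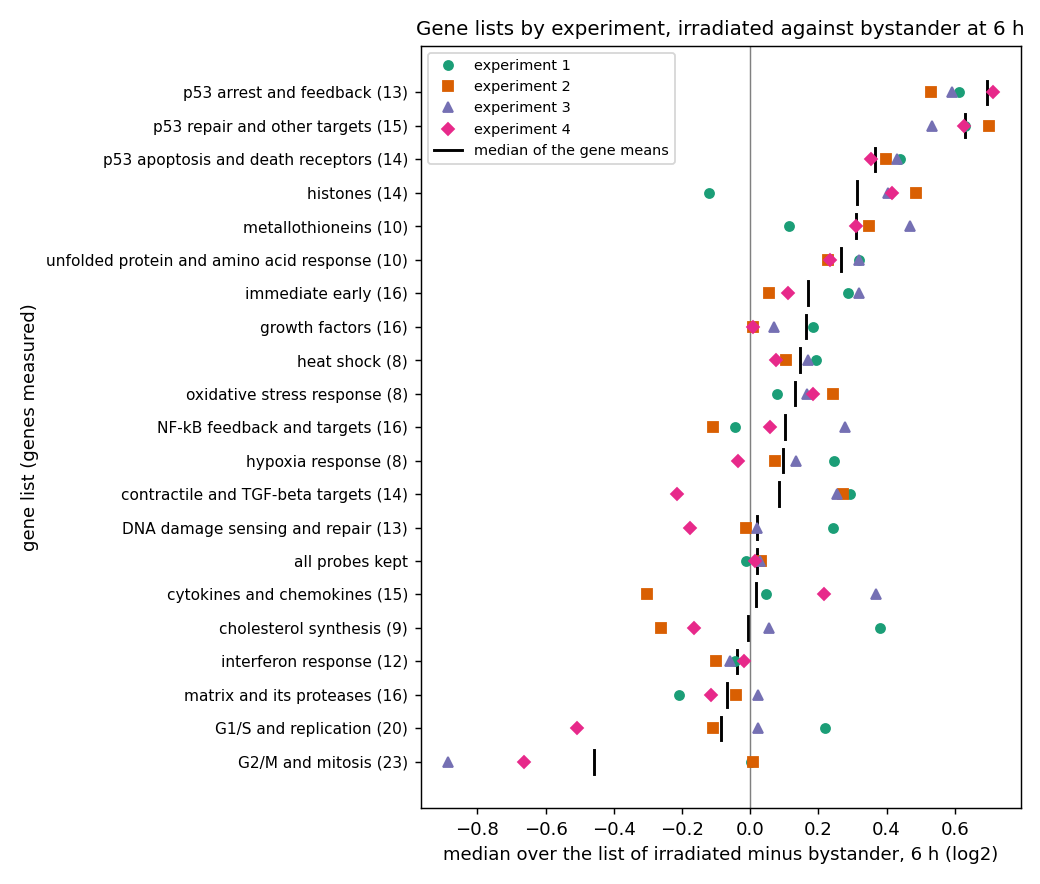
Median difference between irradiated and bystander cells at 6 h (log2, x axis) over the genes of each list and over all probes (y axis), with 1 marker for each experiment and a bar at the median of the gene means. The p53 lists lie between 0.35 and 0.71 in all experiments, while the G2/M and mitosis list splits into experiments 1 and 2 near 0 and experiments 3 and 4 at -0.89 and -0.66.

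The cytokine and chemokine genes, which carry signals between cells, had medians of 0.05, -0.30, 0.37 and 0.22 in experiments 1 to 4. Of 15 measured cytokine and chemokine genes, 2 were higher in 4 of 4 experiments and none lower in 4 of 4, where all probes had 9.33% and 7.48%. CXCL8, interleukin 8, read 14.64, 14.90, 11.997 and 14.18 on the irradiated arrays and 13.70, 14.74, 11.11 and 13.97 on the bystander arrays, overlapping groups with a difference of 0.55 ± 0.42. IL6 was at 0.45 ± 0.65 and IL1B at 0.02 ± 0.38. The 16 NF-κB feedback and target genes had a median of 0.10, with 1 gene higher in 4 of 4. Without scaling between arrays that median was -0.06, with 0 genes higher and 2 lower in 4 of 4. The cytokine and chemokine median was then -0.15, with 2 genes higher and 1 lower in 4 of 4. A difference below the threshold does not show that the levels were equal.

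Metallothioneins bind zinc and copper. Of 10 measured genes, 7 were higher in 4 of 4 experiments, against 9.33% of all probes, with a median of 0.31 and a highest value of 0.39, and none was called. Without scaling between arrays 1 of the 10 was higher in 4 of 4. The median was then 0.15, against -0.14 for all probes. MT1X was at 0.32 ± 0.17 and MT1E at 0.39 ± 0.25, and MT2A at 0.11 ± 0.59. Metallothionein genes are near-identical and their probes may share transcripts. Histone genes had a median of 0.31, with 0.49, 0.41 and 0.41 in experiments 2, 3 and 4 and -0.12 in experiment 1. Their median was 0.15 without scaling between arrays.

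The medians of the remaining lists were 0.02 for DNA damage sensing and repair (13 genes), 0.17 for growth factors (16), 0.14 for heat shock (8), 0.13 for the oxidative stress response (8), 0.10 for the hypoxia response (8), 0.09 for contractile and TGF-β targets (14), -0.01 for cholesterol synthesis (9), -0.04 for the interferon response (12) and -0.07 for matrix genes and proteases (16). The fibroblast markers were at -0.06, and below 0 in each experiment. The 4 epithelial, 3 endothelial and 4 blood cell markers that passed the filter were at 0.17, 0.05 and 0.17, with medians by experiment of both signs. Without scaling between arrays the medians for heat shock, oxidative stress and hypoxia were -0.02, -0.03 and -0.07, where that of all probes was -0.14. Those for DNA damage sensing and repair, contractile and TGF-β targets and cholesterol synthesis were -0.14, -0.08 and -0.17. The interferon, matrix and fibroblast marker lists were then at -0.20, -0.29 and -0.22, and growth factors at 0.002. The epithelial, endothelial and blood cell markers were at 0.002, -0.11 and 0.003. SERPINB2 of the matrix list was not measured evenly on all arrays, and its pairs of experiments 1 and 2 were missing. Computed as for the time course, the median of the matrix list at 6 h was -0.13.

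The comparisons of each population with the same control arrays are given side by side. Of the 42 p53 list genes, 20 were called higher in irradiated cells than in controls (against 4.88% of all probes) and 1, GADD45A, in bystander cells (against 0.214%), with medians of 0.69 and 0.14. FDXR differed from controls by 1.56 ± 0.65 in irradiated cells (adjusted p 0.0101 by limma) and by 0.21 ± 0.62 in bystander cells (adjusted p 0.681). GADD45A differed by 1.75 ± 0.12 and 1.05 ± 0.28 (adjusted p 0.00137 and 0.0325). Of the 15 cytokine genes, 11 were called higher in irradiated and 4 in bystander cells, with medians of 1.58 and 1.31. Without the experiment as a block these calls were 9 of 42 and 1 of 15 in irradiated cells and none in bystander cells. Leaving out any of experiments 1, 2 or 4 also left no call of either list in bystander cells, whereas without experiment 3 they were 2 of 42 and 7 of 15. Without scaling the p53 calls were 12 of 42 in irradiated and 0 of 42 in bystander cells. The cytokine calls were then 11 and 3 of 15, and without experiment 1 those in irradiated cells were 7 of 15. Over all probes and both directions, 2654 were called in irradiated cells, 48 without the block, 4441 without scaling and 770 without experiment 1. For bystander cells these were 73, 0 without the block, 54 without scaling and 234 without experiment 3. The shares of all probes called higher under these settings are not given here.

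**Figure D4:**
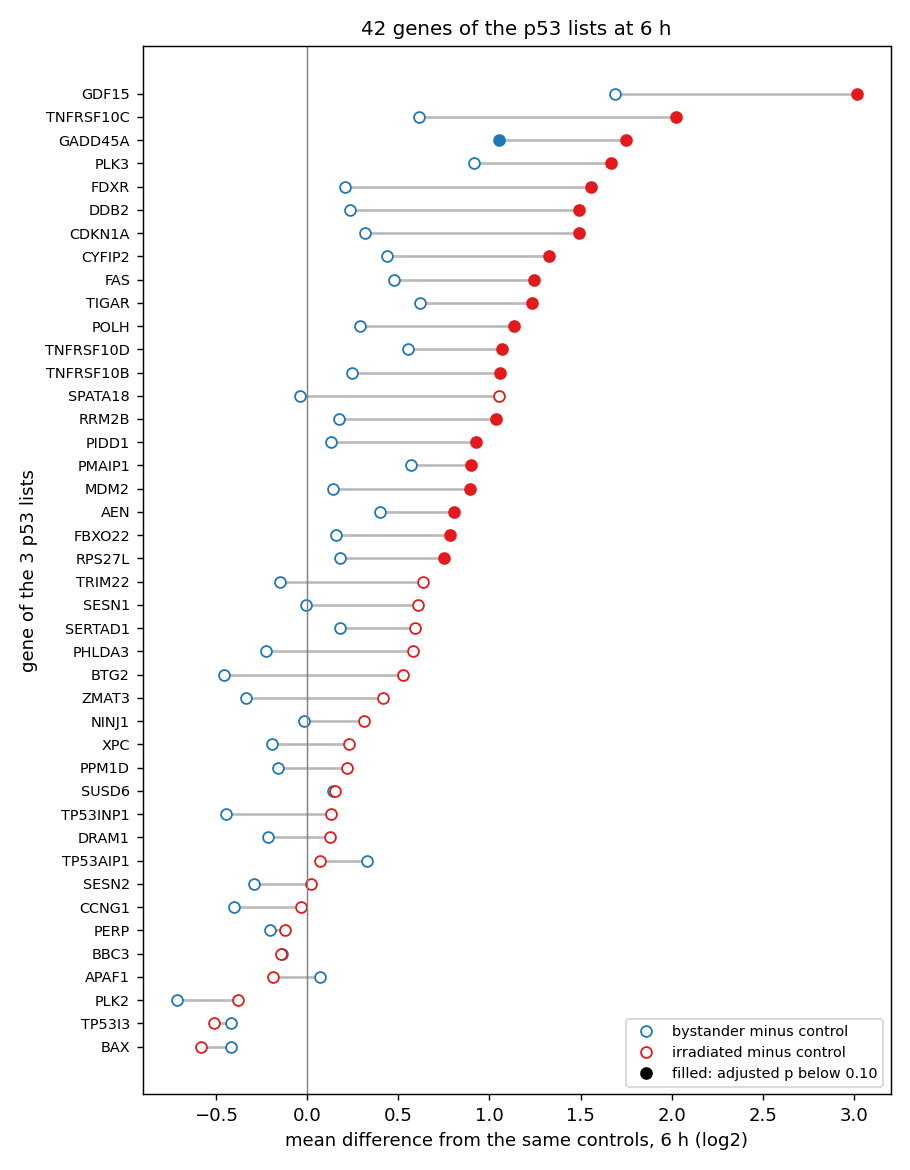
Mean difference from the same 4 control arrays at 6 h (log2, x axis) for the 42 measured genes of the p53 lists (y axis), in irradiated (red) and bystander cells (blue), with filled circles at an adjusted p below 0.10. Of the 20 filled red circles the lowest is RPS27L at 0.75, and the 1 filled blue circle is GADD45A at 1.05.

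The same contrast at the other times places the 6 h values in the time course. Over the 3 p53 lists together the median difference was -0.03 at 0.5 h, 0.01 at 1 h, 0.31 at 2 h, 0.78 at 4 h, 0.62 at 6 h and 0.33 at 24 h. The number of list genes at least 1.5-fold higher in 4 of 4 experiments was 0, 0, 8, 18, 10 and 0 at these times, when 0, 3, 18, 56, 27 and 1 of all probes met that rule. In percent these were 0, 0.0119, 0.0714, 0.222, 0.107 and 0.00398 of the probes measured at each time. The limma fit of 12 arrays called 11 probes higher at 2 h, 2 at 4 h and none at the others, and the fit of irradiated and bystander arrays alone called 28, 67 and 5 higher and 0, 1 and 0 lower at 2, 4 and 6 h. Differences between times were not tested.

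By gene, the means over 4 experiments were as follows. CDKN1A was at 1.51 ± 0.35 at 2 h, 2.04 ± 0.27 at 4 h, 1.17 ± 0.37 at 6 h and 0.80 ± 0.72 at 24 h, and BTG2 was at 1.67 ± 0.25, 1.77 ± 0.63, 0.98 ± 0.32 and 0.40 ± 0.22. FDXR was at 0.52 ± 0.22, 1.13 ± 0.27, 1.35 ± 0.12 and 0.74 ± 0.30 at these times, DDB2 at 0.37 ± 0.23, 1.07 ± 0.24, 1.26 ± 0.04 and 0.67 ± 0.36, and TNFRSF10C at 0.30 ± 0.50, 0.91 ± 0.47, 1.41 ± 0.13 and 1.05 ± 0.71. The highest means were at 4 h for CDKN1A and BTG2 and at 6 h for FDXR, DDB2 and TNFRSF10C. The ranges of mean ± SD overlapped at 2 and 4 h for CDKN1A and BTG2, at 4 and 6 h for BTG2 but not for CDKN1A, and at 4 and 6 h for FDXR, DDB2 and TNFRSF10C. RDH10 was at 0.20 ± 0.15 at 4 h and 0.71 ± 0.21 at 6 h. The G2/M and mitosis list had medians of 0.15 at 0.5 h, 0.18 at 1 h and -0.06 at 2 h. It was at -0.17 at 4 h, -0.46 at 6 h and -0.54 at 24 h, with an SD of 0.46 between experiments at 6 h.

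**Figure D5:**
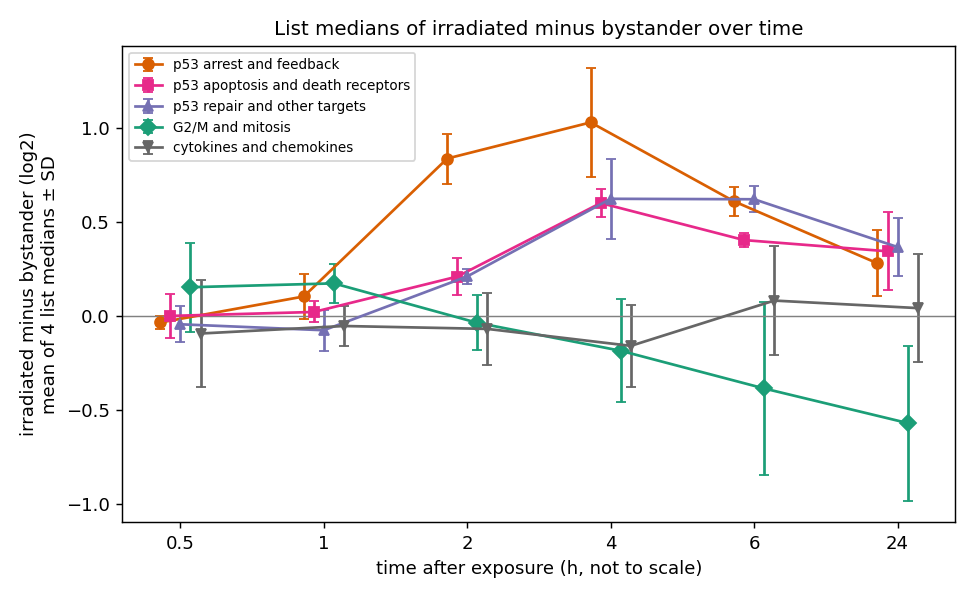
Mean ± SD over 4 experiments of the list median of irradiated minus bystander (log2, y axis) at 6 times after exposure (x axis, not to scale) for 5 gene lists. The p53 arrest and feedback list is highest at 4 h, at 1.03, and all 3 p53 lists lie above 0 from 2 h on, while the G2/M list is at -0.39 at 6 h and -0.57 at 24 h with wide error bars and the cytokine list stays between -0.16 and 0.08.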

How the data were processed

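For each of 72 arrays the authors deposited the scanner's spot intensities, background-subtracted by Agilent Feature Extraction 9.1.3.1 and not normalized between arrays. They also deposited a table of log2 values, used here only as an alternative. Intensities were scaled to a common 75th percentile and set to at least 1 before log2, uneven spots were left out and spots of a probe averaged. Probes dim or uneven on more than 10% of the 72 arrays were removed, as in the study's methods. Symbols came from RefSeq by accession, symbol or synonym, and 12303 of 41000 probes stayed unnamed. The contrast was fitted with limma 3.58.1 (R 4.3.3) on the 12 arrays of 6 h, with the experiment as a block, an intensity trend and Benjamini-Hochberg adjustment (threshold 0.10). The replicate number marks an experiment in the study's methods, and that is why it was used as a block. Lists were described with no test, each gene by its brightest probe. Named genes were the 12 of lowest p in each direction with 1 sign in 4 of 4 experiments, the first measured members of lists, and CDKN1A, GDF15, GADD45A, MDM2 and GDNF (91 in all, of which the text gives 40). Members and lists were chosen with earlier results of these data known. The fits were tested on simulated data, and no outcome of that test is given here.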

Additional observations from a re-analysis of the deposited data

Results flagged for a closer look

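POLH in experiment 1 had a difference of 1.42, apart from the other 3 experiments, which lay between 0.57 and 0.70. Among the 66 probes described it was the single one with an experiment so far from the others, and chance flags about 1 in 20 groups of 4.

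For 11 named genes the 4 experiments at another time all had the opposite sign to the 4 at 6 h. They were 13 of 278 comparisons (4.68%), each of 56 probes with 1 sign at 6 h against another time, and equal chances of either sign would give 6.25%, so the number is no more than chance gives. The differences between times were not tested. Genes higher at 6 h were lower in all 4 experiments at an early time, when the p53 lists lay near 0: TNFRSF10C at 1 h (-0.10), CYFIP2 at 0.5 h (-0.22) and 1 h (-0.22), XPC at 0.5 h (-0.10) and 1 h (-0.19), SESN1 at 0.5 h (-0.0667) and SPATA18 at 0.5 h (-0.091). Genes lower at 6 h were higher at 0.5 h (EIF2AK1, 0.15), at 1 h (CCNB1, 0.18, and CDC20, 0.0804) or at 4 h (KDM2B, 0.20, MYD88, 0.0865, and RBBP6, 0.32).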

How the results depend on the processing

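The fit of 12 arrays called 0 probes in either direction under every alternative run on the same 12 arrays: no scaling, quantile normalization, normexp, the deposited value table, both other filters, no intensity trend, and the slide as a further block (135 probes at an unadjusted p under 0.05). Without each experiment in turn it also called 0. Without the replicate block it called 0, with 132 probes at an unadjusted p under 0.05. The fit of 8 arrays, planned as an alternative, called 5 higher and 0 lower. Further alternatives were chosen after seeing the data. That fit called 25 higher and 115 lower without scaling, 6 and 2 after quantile normalization, 0 and 0 with no filter on dim probes, and 3 and 0 with no trend. Leaving out 1 experiment gave 0 to 58 higher and 0 to 63 lower, the highest without experiment 1. The causes of these shifts were not tested.

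The count of probes at least 1.5-fold higher in every experiment, 27, became 9 without scaling, 14 with normexp, 77 with no filter and 31 to 50 without 1 experiment. The count lower, 10, became 18, 6, 95 and 16 to 51. Fewer experiments must pass when 1 is left out. Of the p53 list genes, 3 in place of 10 met the rule for higher without scaling, which moved the median of all probes from 0.0186 to -0.145. Against controls, 2654 probes were called in irradiated cells, 4441 without scaling, 48 without the replicate block and 208 to 1840 without 1 experiment. In bystander cells 73 were called, 0 without the block and 0 to 234 without 1 experiment. At the other times 13 were called in all, 2 without scaling and 0 without the block.

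Of the differences of named genes under the alternatives, 906 kept their direction and their side of the threshold, 5 passed it in the fit of 8 arrays and 13 changed sign, in 6 genes whose SD over experiments exceeded their mean. IL1B was at -0.15 without scaling, -0.0307 after quantile normalization, -0.0067 with the value table and -0.12 with the slide, IL6 at -0.0688 with the slide and MT2A at -0.0534 without scaling. Without 1 experiment, BBC3 A_23_P90189 ran from -0.0973 to 0.0683, IL1B from -0.076 to 0.196, MT2A from -0.11 to 0.284, TP53I3 from -0.247 to 0.0183 and BAX from -0.431 to 0.14. Of the list medians, 224 moved by less than the spread between experiments and 26 by more. Of these 26, 14 were without scaling between arrays and 5 without experiment 4.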
